A study of Mus musculus with 8 samples.

Results

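Cells that approach and pass through mitosis switch on a shared set of genes in G2, and 46 of these genes are described here across the 8 arrays of a study of Ascl2, a transcription factor of the intestinal stem cell. The 46 were taken from a list of G2/M and mitosis genes, matched to the arrays by gene symbol or an older alias, with the brightest probe standing for each gene. All 46 had a probe on the array, among 27574 gene names in all. The list was not chosen on measured values, but it was drawn up with results of these arrays known.

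The study set pairs of RNA against each other on two-colour arrays, in which 1 RNA is labelled with Cy5 and the other with Cy3. In the deletion comparison the RNA came from epithelial cells of the small intestine of Ah-Cre/Ascl2floxed/floxed animals and of Ah-Cre/Ascl2floxed/wt controls, 3 or 5 days after induction, so the controls carried the same Cre transgene and 1 floxed copy of Ascl2, although the array titles call them wildtype. In the sort comparison GFPhi cells were set against GFPlo cells of Lgr5-EGFP-ires-CreERT2 mice, which make green fluorescent protein from the Lgr5 promoter, in 2 sorts that each combined 3 mice. A dye swap put each of the 4 RNA pairs on 2 arrays, which share both extracts and were averaged to 1 replicate. Each day of the deletion is thus 1 RNA pair. The number of animals behind it, their age and the inducing agent are not given in the sources used here. Ah-Cre places the recombinase under an inducible promoter that is active in the epithelium, and how many cells had lost Ascl2 is not known from these files beyond the Ascl2 signal itself. The day, the arrays and the animals cannot be told apart. The study asked which genes depend on Ascl2 and which mark Lgr5 cells.

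In a dividing cell, cyclin B and Cdk1 drive entry into mitosis, Plk1 and the Aurora kinases build the spindle, the spindle checkpoint holds the cell until every chromosome is attached, and the anaphase-promoting complex then destroys securin and the cyclins. Many of these genes are repressed in resting cells and transcribed in G2 by the MuvB complex with B-Myb and Foxm1. In the intestine, division takes place in the crypts, where Lgr5-positive stem cells at the base and the transit-amplifying cells above them cycle, while cells on the villi have left the cycle. In bulk RNA, fewer dividing cells and less RNA per dividing cell cannot be told apart.

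Because these genes moved together on the arrays, the DNA upstream of their starts is shown first. RefSeq promoter windows of 300 bases (250 before and 50 after the start, build GRCm38.p6) were at hand for 38 of the 46 genes. The letters searched for were TTTGAA and TTTAAA, the core forms of the cell cycle genes homology region (CHR) that MuvB binds, and CCAAT, the box bound by NF-Y, each on both strands. The form TTTAAA reads the same on both strands, and matches of different letter groups shared a base in the window of 1 of the 38 genes. The last 120 bases before the start of 6 genes follow, 5′ to 3′ on the strand of the gene, with CHR and CCAAT letters of either strand in capitals. They were picked as the Cdk1 kinase and its cyclin, a mitotic kinase, the activator of the anaphase-promoting complex, the mitotic topoisomerase and the gene with the lowest ratio on day 3. All 6 hold both kinds of letters in these 120 bases, which is not typical of the 38 genes. Most of the 38 hold no CHR letters there, among them the kinase genes Aurka, Nek2, Melk, Bub1 and Ttk.
Cdk1: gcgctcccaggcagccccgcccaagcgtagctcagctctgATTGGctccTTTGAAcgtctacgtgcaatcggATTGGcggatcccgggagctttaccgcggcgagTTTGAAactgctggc
Ccnb1: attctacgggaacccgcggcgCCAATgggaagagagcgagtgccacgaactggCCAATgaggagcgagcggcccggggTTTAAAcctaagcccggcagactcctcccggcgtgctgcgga
Plk1: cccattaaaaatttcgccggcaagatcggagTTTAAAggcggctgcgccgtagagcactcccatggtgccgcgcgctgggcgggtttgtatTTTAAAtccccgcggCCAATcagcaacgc
Cdc20: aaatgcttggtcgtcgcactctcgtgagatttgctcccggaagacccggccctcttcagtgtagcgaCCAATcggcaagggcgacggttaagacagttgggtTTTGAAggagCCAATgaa
Top2a: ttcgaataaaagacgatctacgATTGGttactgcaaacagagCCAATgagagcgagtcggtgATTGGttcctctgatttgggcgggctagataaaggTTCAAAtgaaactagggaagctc
Cdkn3: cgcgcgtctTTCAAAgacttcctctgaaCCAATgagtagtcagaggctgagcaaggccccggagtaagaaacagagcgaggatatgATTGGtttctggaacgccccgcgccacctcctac
These stretches lie at chr10:69352913-69353032 on the minus strand (Cdk1), chr13:100786487-100786606 on the minus strand (Ccnb1), chr7:122159315-122159434 on the plus strand (Plk1), chr4:118437344-118437463 on the minus strand (Cdc20), chr11:99024190-99024309 on the minus strand (Top2a) and chr14:46760421-46760540 on the plus strand (Cdkn3).

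TTTGAA was in the window of 27 of the 38 genes (71.1%), against 20.2% of all 27025 genes with a window. TTTAAA was in 8 (21.1%, against 14.9%), and either form in 30 (78.9%, against 30.6%). At least 1 CCAAT was in 29 of the 38 (76.3%, against 41.1% of all genes), and at least 2 were in 20 (52.6%, against 13.3%). The genes of DNA replication and the G1/S step held either CHR form in 9 of 31 windows (29.0%). CAGCTG, 1 form of the E-box that basic helix-loop-helix factors such as Ascl2 bind, was in 6 of 38 windows (15.8%) against 18.3% of all genes. A match in these windows is a description of letters and shows no binding. The windows were not matched for base composition. On day 3 the 30 genes with a CHR form had a median log2 ratio of -0.99 and the 8 without had -1.002.

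As a check of the labels, Ascl2 had log2 ratios to control between -1.36 and -1.29 over the deletion arrays, and Lgr5 was higher in GFPhi cells at a mean of 1.85 over the sorts, both in the direction of the labels. No source used here says which part of Ascl2 is removed, so whether its probe lies in that part is unknown. The share of spots above background was 55.0% to 66.9% by channel for the deletion and 35.5% to 44.6% for the sorts. All 46 genes were well above background on every array in both deleted and control RNA, and 0 were saturated on any array. In the sorts 39 passed this signal filter. Those that did not were Cdc25c, Bub1, Ttk, Anln, Hmmr, Ckap2 and Smc2.

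On day 3 after induction every one of the 46 mitosis genes was lower in Ascl2-deleted than in control epithelium. All 46 had a ratio below 0 on both arrays, against 39.5% of the 15892 genes tested. The median was -0.99, about the level of a 2-fold fall, while the median of all genes tested was 0.0034. On day 5 the median of the 46 was 0.03, with 16 below 0 and 30 above. For all 46, both day 3 arrays lay below both day 5 arrays, a pattern seen in 34.8% of all genes tested.

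On both day 3 arrays 18 of the 46 were at least 2-fold lower, against 1.71% of all genes tested, and 2 were so with median centring in place of loess. On day 5, 0 were at least 2-fold lower on both arrays (0.711% of all genes tested) and 1, Pttg1, was at least 2-fold higher (1.15%). In a limma fit with a term for each day, 45 of the 46 were lower on day 3 at an adjusted p under 0.05, as were 20.7% of all genes tested, and Nusap1 missed the threshold (limma adjusted p = 0.0505). In the same fit 1 of the 46 passed on day 5, against 7.47% of all genes in either direction. The difference between the days passed for 43 genes, all lower on day 3, against 15.5% of all genes, and did not pass for Bub3, Hmmr and Nusap1. The spread in that fit comes from the 2 sorts, so a test of 1 day assumes that its lone RNA pair varies as the sorts do, and for the 7 genes that did not pass the signal filter there it rests on dim signals. With the scanner's own processed signals, or with median centring in place of loess, 0 of the 46 and 0 of all genes passed on either day or for the difference between days, although all 46 stayed below 0 on day 3.

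**Figure D1:**
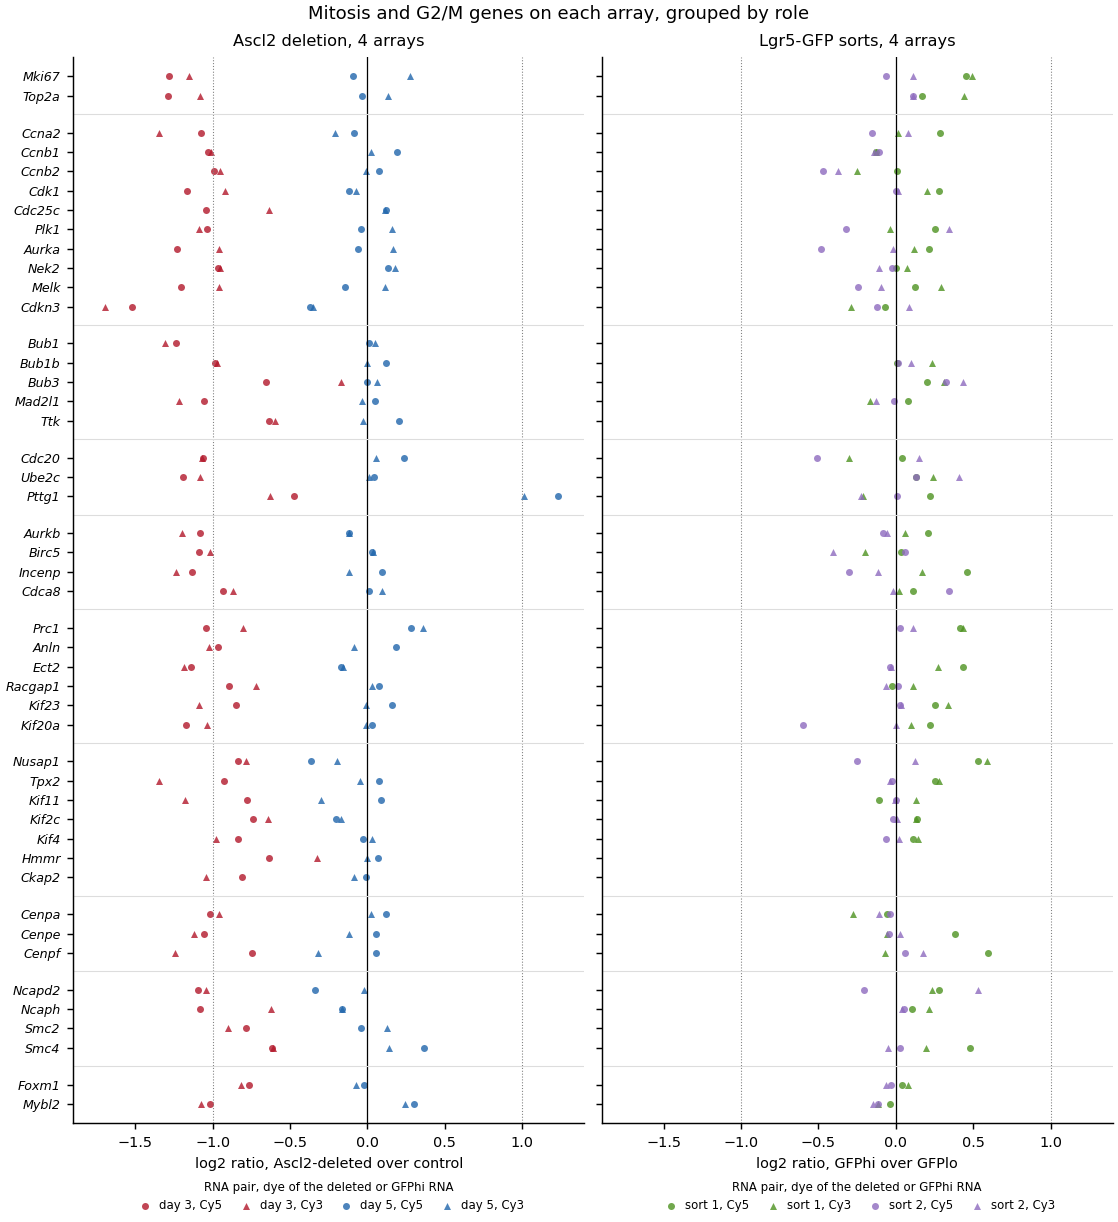
Log2 ratio of each of the 46 genes on each array, grouped by role, with the deletion on the left and the sorts on the right (39 genes that passed the signal filter). Circles are arrays with the deleted or GFPhi RNA in Cy5 and triangles those with it in Cy3, and dotted lines mark 2-fold. The day 3 points all lie below 0, the day 5 points lie around 0 except for Pttg1, and the points of the sorts lie on both sides of 0.

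In what follows the log2 ratio of deleted over control is given first for the array with deleted RNA in Cy3 and then for the array with it in Cy5. Mki67 encodes Ki-67, the protein that coats mitotic chromosomes and is the usual marker of dividing cells. Its ratios were -1.15 and -1.28 on day 3, then 0.28 and -0.10 on day 5, a level 2.32-fold lower on day 3 (SE 0.17, limma adjusted p = 0.0103). Top2a encodes topoisomerase II alpha, which untangles sister chromatids, and stood at -1.08 and -1.29 on day 3, then 0.13 and -0.03 on day 5. Both genes were low on both day 3 arrays only, and their day 5 arrays lay on either side of 0. The Mki67 probe lies on chromosome 7 from 135528251 to 135528310 in build mm8.

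The 10 cyclins, kinases and phosphatases that drive mitosis had a day 3 median of -1.05, and all 10 were lower at an adjusted p under 0.05 (limma). Ccna2, the cyclin of S phase and G2, was at -1.35 and -1.08 on day 3, then -0.21 and -0.09 on day 5. Ccnb1, the main cyclin of mitotic entry, was at -1.01 and -1.03 on day 3, then 0.02 and 0.19 on day 5, 2.03-fold lower on day 3 (SE 0.08, limma adjusted p = 0.00479). The second B-type cyclin gene, Ccnb2, stood at -0.95 and -0.99 on day 3, then -0.0081 and 0.07 on day 5. All 3 cyclins were low on both day 3 arrays and nearer to 0 on both day 5 arrays. Cdk1, their kinase partner, was at -0.92 and -1.17 on day 3, then -0.07 and -0.12 on day 5. A dimmer Cdk1 probe past the signal filter was at only -0.08 on day 3, the widest gap between probes of any of the 46 genes. Cdc25c, the phosphatase that activates Cdk1, was at -0.64 and -1.04 on day 3, then 0.11 and 0.12 on day 5. Its day 3 arrays differed, and both were below both day 5 arrays.

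Polo-like kinase 1 (Plk1), which acts from centrosome maturation to cytokinesis, had ratios of -1.09 and -1.04 on day 3, then 0.16 and -0.04 on day 5. Aurka, the Aurora kinase of the spindle poles, had -0.96 and -1.23 on day 3, then 0.17 and -0.06 on day 5. Both were lower on day 3 by amounts close to those of the B-type cyclins. The lowest of the 46 on day 3 was Cdkn3, a phosphatase that acts on Cdk proteins, at -1.70 and -1.52 on day 3, then -0.35 and -0.37 on day 5. It was 3.05-fold lower on day 3 (SE 0.09, limma adjusted p = 0.00402). It was also the lowest of the 46 on day 5, where its ratio did not pass the test (limma adjusted p = 0.111). Both ranks rest on the brightest probe, because a second Cdkn3 probe past the signal filter was at -1.17 on day 3 and -0.06 on day 5. The centrosome kinase gene Nek2 had means of -0.96 on day 3 and 0.16 on day 5, and the kinase gene Melk had -1.08 and -0.01.

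The spindle checkpoint genes spread more widely on day 3 than any other role, from -1.27 to -0.41. Bub1, a checkpoint kinase of the kinetochore, was at -1.31 and -1.23 on day 3, then 0.05 and 0.0094 on day 5. Mad2l1, the protein that holds Cdc20 inactive, was at -1.22 and -1.06 on day 3, then -0.03 and 0.05 on day 5. Both were low on both day 3 arrays and near 0 on day 5. Ttk, the kinase that starts the checkpoint signal, had smaller ratios, at -0.60 and -0.64 on day 3, then -0.03 and 0.21 on day 5. Its signal was dim, at 7.51 (log2) in deleted RNA of day 3 against a median of 9.18 for the 46. Over the processing settings its day 3 ratio ran from -0.95 to -0.59. Bub3, which carries Bub1 to the kinetochore, had the day 3 ratio nearest to 0 of the 46, at -0.17 and -0.65 on day 3, then 0.06 and -0.00028 on day 5, or 1.33-fold lower on day 3 (SE 0.09, limma adjusted p = 0.0258). A second Bub3 probe was at -0.41, as was the first. Bub1b, the partner of Bub3 in the checkpoint complex, had a mean of -0.98 on day 3.

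The 3 genes of anaphase and protein destruction held the widest contrast on day 5. Cdc20, which activates the anaphase-promoting complex, was at -1.07 and -1.06 on day 3, then 0.06 and 0.24 on day 5. Ube2c, the ubiquitin-conjugating enzyme of that complex, was at -1.08 and -1.19 on day 3, then 0.01 and 0.05 on day 5. Both were close to the B-type cyclins, which the complex destroys, on each day. Pttg1 encodes securin, the inhibitor of separase that the complex destroys at anaphase, and it was at -0.63 and -0.48 on day 3, then 1.01 and 1.23 on day 5. It was thus 1.47-fold lower on day 3 (SE 0.09, limma adjusted p = 0.0126) and 2.17-fold higher on day 5 (SE 0.09, limma adjusted p = 0.00681). Its difference between the days was -1.67 (limma adjusted p = 0.00532), and the arrays of the 2 days did not overlap. With the scanner's processed signals or median centring Pttg1 was not at least 2-fold higher on both day 5 arrays. The Pttg1 probe lies on chromosome 11 from 43263722 to 43263781 in mm8.

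All 4 genes of the chromosomal passenger complex, which corrects wrong attachments and starts cytokinesis, were lower on day 3 by the test. Its kinase gene Aurkb was at -1.20 and -1.08 on day 3, then -0.12 and -0.12 on day 5. Its survivin gene Birc5 was at -1.02 and -1.09 on day 3, then 0.04 and 0.03 on day 5. Its scaffold gene Incenp was at -1.24 and -1.13 on day 3, then -0.12 and 0.09 on day 5. All 4 genes were low together, with Cdca8 (borealin) nearest to 0 at a mean of -0.90 on day 3, and their day 5 means ran from -0.12 to 0.05.

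Of the 6 genes of the central spindle and cytokinesis, Prc1, which bundles the antiparallel microtubules of the midzone, was at -0.80 and -1.04 on day 3, then 0.36 and 0.28 on day 5. It was the second highest of the 46 on day 5, where it did not pass the test (limma adjusted p = 0.289). Anln, the anillin of the contractile ring, was at -1.02 and -0.96 on day 3, then -0.08 and 0.18 on day 5. The other four were the midzone motor gene Kif20a and the genes of the RhoA exchange factor Ect2 and of both centralspindlin subunits, Racgap1 and Kif23. Their day 3 means ran from -1.16 for Ect2 to -0.80 for Racgap1, and all 6 genes were lower by the test.

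The 7 genes of spindle motors and microtubule proteins held 2 of the 3 genes whose day difference did not pass. Tpx2, which activates Aurora A on the spindle, was at -1.35 and -0.93 on day 3, then -0.05 and 0.08 on day 5. Kif11, the motor that pushes spindle poles apart, was at -1.18 and -0.78 on day 3, then -0.30 and 0.09 on day 5. On day 3 the 2 arrays differed by about 0.4 for each of these genes, and each still lay below both day 5 arrays. Nusap1, a microtubule-bundling protein gene, was at -0.78 and -0.84 on day 3, then -0.20 and -0.37 on day 5, and its large standard error of 0.22 came from the gap between its sorts. Hmmr, a spindle-associated hyaluronan receptor gene, had the ratio second nearest to 0 on day 3, at -0.33 and -0.64 on day 3, then -0.00082 and 0.07 on day 5. Its signal was dim, at 7.28 (log2) in deleted RNA of day 3. That rank depends on the processing, because the day 3 ratio of Hmmr ran from -1.19 to -0.33 over the settings. The depolymerising kinesin gene Kif2c, among the 3 lowest on day 5, was at -0.64 and -0.74 on day 3, then -0.17 and -0.20 on day 5. The chromokinesin gene Kif4 had a day 3 mean of -0.91, and the spindle protein gene Ckap2 of -0.93.

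All 3 centromere genes were close to 2-fold lower on day 3. Cenpa, the histone variant that marks the centromere, was at -0.96 and -1.02 on day 3, then 0.02 and 0.12 on day 5. Cenpe, a kinetochore motor, was at -1.12 and -1.06 on day 3, then -0.12 and 0.06 on day 5. Cenpf, a large kinetochore protein, had the widest gap between its day 3 arrays of the 46 genes, at -1.24 and -0.74, and its second probe was at -0.31. In the condensin complex, which compacts chromosomes, Ncapd2 was at -1.04 and -1.09 on day 3, then -0.02 and -0.34 on day 5. Smc2, 1 of its core ATPases, was at -0.90 and -0.78 on day 3, then 0.13 and -0.04 on day 5. Smc4, the ATPase partner of Smc2, was less low on day 3 and above 0 on both day 5 arrays, at -0.61 and -0.61 on day 3, then 0.14 and 0.36 on day 5. The mean of Ncaph on day 3 was -0.85, and all 4 condensin genes were lower on day 3 by the test.

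Of the transcription factors that switch on these genes, Foxm1 was at -0.82 and -0.77 on day 3, then -0.08 and -0.02 on day 5. Mybl2, the B-Myb that joins MuvB in S phase, was at -1.07 and -1.02 on day 3, then 0.24 and 0.30 on day 5, 2.06-fold lower on day 3 (SE 0.08, limma adjusted p = 0.00479). Both regulators were thus lower on day 3 along with the genes they are known to switch on, and on day 5 neither passed the test (limma adjusted p of 0.806 and 0.14).

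**Figure D2:**
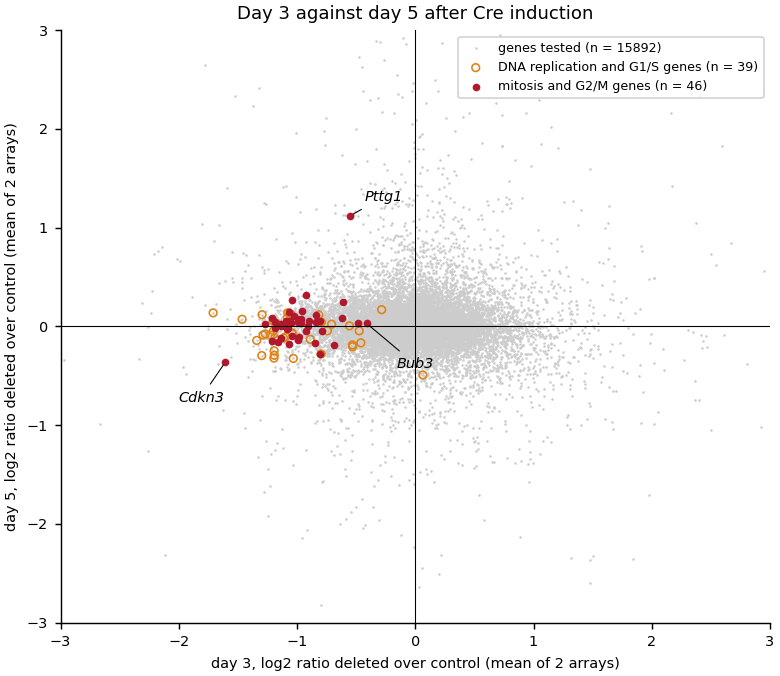
Mean log2 ratio of deleted over control on day 3 (horizontal) against day 5 (vertical) for the 15892 genes tested (grey), 39 DNA replication and G1/S genes (open orange circles) and the 46 mitosis and G2/M genes (red). The red points lie in a narrow band left of 0 and near 0 on day 5, with Pttg1 above the band and Cdkn3 at its left end, and 46 genes tested lie outside the plotted range of -3 to 3.

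In the joint fit over both days, which takes the gap between days as spread, 0 of the 46 genes passed, as did 0% of all genes tested (limma). At an unadjusted p under 0.05 there were 2 of the 46 and 1533 of all genes. Without day 3 that count of the 46 at an adjusted p under 0.05 was 1 and without day 5 it was 45.

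Signals of each RNA were also read on their own, from single channels after loess and between-array scaling. The median signal of the 46 genes was 10.28 (log2) in control RNA and 9.18 in deleted RNA on day 3, and 10.85 and 10.76 on day 5. Deleted RNA of day 3 was below deleted RNA of day 5 for 46 of 46 genes, by a median of 1.36. Control RNA of day 3 was above control RNA of day 5 for 6 of the 46, with a median difference of -0.39. Control RNA of most of the 46 was thus lower on day 3 than on day 5 as well. For all genes tested the same differences had medians of -0.03 and -0.01. Of these 15892 genes, 8554 had deleted RNA of day 3 below that of day 5. Control RNA of day 3 was above that of day 5 for 7665 of them. These differences set arrays of 1 day against arrays of the other, so the day, arrays and animals cannot be told apart in them.

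**Figure D3:**
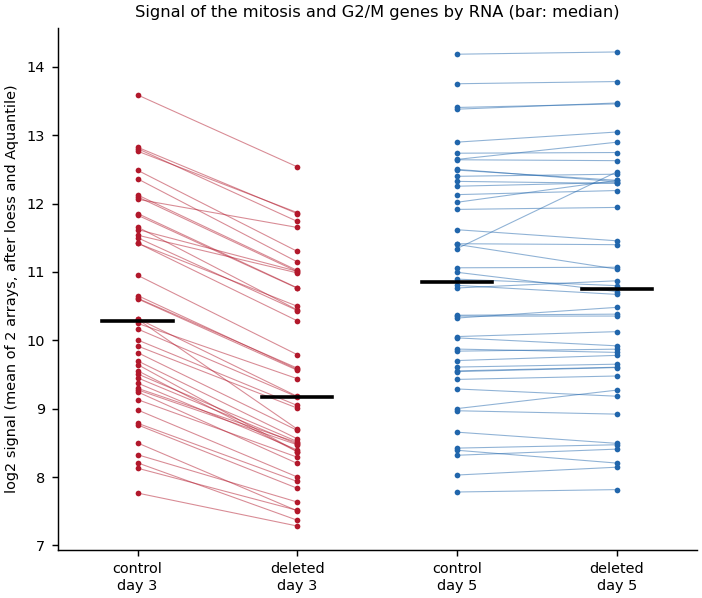
Log2 signal of the 46 genes in control and deleted RNA of day 3 (red) and day 5 (blue), each the mean of 2 arrays, with lines joining the 2 RNAs of a pair and black bars at the medians of 10.28, 9.18, 10.85 and 10.76. Every red line falls from control to deleted, and most blue lines are flat.

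In the sorts the mitosis genes were near equal between GFPhi and GFPlo cells. The median over the 39 measured genes was 0.06, with 27 above 0 and 12 below, and the median of all genes was 0.00015. The sorts differed: in sort 1 the median was 0.15 with 31 genes above 0, and in sort 2 it was -0.03 with 13 above 0. Smaller ratios in sort 2 were not particular to the mitosis genes. Medians in sort 1 and sort 2 were -1.60 and -0.30 for enteroendocrine markers and -1.21 and -0.50 for goblet markers. They were 0.84 and 0.59 for crypt base stem cell markers, while T cell markers stayed near 0 at 0.03 and 0.04. In the joint limma fit 0 of the 39 passed, as did 0% of the 10436 genes tested, and at an unadjusted p under 0.05 the counts were 0 and 526. The spread in this fit takes in the gap between the deletion days, which had a median of -1.04 over the 46 genes. Even Lgr5, at a mean of 1.85, did not pass it (limma adjusted p = 0.63). Failing it thus does not show that a gene is equal between GFPhi and GFPlo cells. With the sorts fitted alone 75 of all genes passed, and 0 of the mitosis genes. No mitosis gene was at least 2-fold higher or lower on all 4 arrays, against 0.163% of all genes.

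Log2 ratios of GFPhi over GFPlo are given here in the same order of dyes. Mki67 was at 0.49 and 0.45 (sort 1) with 0.11 and -0.06 (sort 2). Top2a was at 0.44 and 0.17 (sort 1) with 0.11 and 0.11 (sort 2). By their brightest probes these 2 markers of dividing cells were higher in GFPhi cells of sort 1 and nearer to 0 in sort 2. A second Mki67 probe past the signal filter had means of only 0.13 in sort 1 and 0.02 in sort 2. For Top2a a second such probe had 0.21 and 0.02. Among the cyclins Ccna2 was at 0.01 and 0.29 (sort 1) with 0.08 and -0.16 (sort 2). By its brightest probe Ccnb1 was below 0 on all 4 arrays, at -0.13 and -0.13 (sort 1) with -0.14 and -0.11 (sort 2). Its other probes past the signal filter did not share that sign. They had means of 0.14 and 0.24 in sort 1, then 0.05 and -0.06 in sort 2. Ccnb2 had the lowest mean of the 39, at -0.25 and 0.0059 (sort 1) with -0.38 and -0.47 (sort 2). None of these genes passed the joint test, whose spread takes in the gap between the days. Cdk1 was at 0.20 and 0.28 (sort 1) with 0.01 and 0.0018 (sort 2). Plk1 was at -0.04 and 0.25 (sort 1) with 0.34 and -0.32 (sort 2). Aurka was at 0.12 and 0.22 (sort 1) with -0.02 and -0.48 (sort 2). The kinases lay on both sides of 0, and Plk1 changed sign with the dye in both sorts.

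The highest mean of the 39 was that of the checkpoint gene Bub3, above 0 on all 4 arrays at 0.31 and 0.20 (sort 1) with 0.44 and 0.33 (sort 2), a mean of 0.32 that did not pass (limma adjusted p = 1). Its checkpoint partner Mad2l1 was at -0.16 and 0.08 (sort 1) with -0.13 and -0.01 (sort 2). By its brightest probe Bub3 was the least low on day 3 of the deletion and the highest in GFPhi cells. The second Bub3 probe past the signal filter had means of only 0.05 in sort 1 and 0.04 in sort 2. Cdc20 had the second lowest mean, at -0.30 and 0.04 (sort 1) with 0.15 and -0.51 (sort 2). Ube2c was above 0 on every array, at 0.24 and 0.13 (sort 1) with 0.41 and 0.13 (sort 2). Pttg1 was at -0.21 and 0.22 (sort 1) with -0.23 and 0.0047 (sort 2). Of these destruction genes only Ube2c kept 1 sign on the 4 arrays of the sorts.

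In the passenger complex Aurkb was at 0.06 and 0.21 (sort 1) with -0.05 and -0.08 (sort 2). Birc5 was at -0.20 and 0.03 (sort 1) with -0.41 and 0.06 (sort 2), the third lowest mean. Incenp was at 0.17 and 0.46 (sort 1) with -0.12 and -0.31 (sort 2). Aurkb and Incenp were above 0 in sort 1 and below 0 in sort 2, while Birc5 followed the dye. The midzone gene Prc1 was above 0 on all 4 arrays, at 0.43 and 0.41 (sort 1) with 0.11 and 0.03 (sort 2). Tpx2 was at 0.28 and 0.25 (sort 1) with -0.04 and -0.03 (sort 2). Nusap1, with the second highest mean, was at 0.59 and 0.53 (sort 1) with 0.13 and -0.25 (sort 2). Prc1, Tpx2 and Nusap1 had their higher values in sort 1. Kif11 was at 0.13 and -0.11 (sort 1) with -0.008 and -0.0011 (sort 2). Cenpa was below 0 on all 4 arrays, at -0.28 and -0.06 (sort 1) with -0.11 and -0.04 (sort 2). Cenpe was at -0.06 and 0.38 (sort 1) with 0.03 and -0.04 (sort 2). None of these spindle and centromere genes passed the joint test. Ncapd2 had the widest gap between dyes in sort 2, at 0.23 and 0.28 (sort 1) with 0.53 and -0.20 (sort 2). Smc4 was at 0.19 and 0.48 (sort 1) with -0.05 and 0.02 (sort 2). The regulators Foxm1 and Mybl2 were near 0. Foxm1 was at 0.08 and 0.04 (sort 1) with -0.06 and -0.03 (sort 2). Mybl2, the partner of MuvB, was below 0 on all 4 arrays, at -0.12 and -0.04 (sort 1) with -0.15 and -0.12 (sort 2).

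Other genes of the cell cycle, from lists drawn up with earlier results of these arrays known, give the setting of the 46. Of 33 other kinetochore genes 30 were below 0 on day 3 at a median of -0.84, and 25 were lower and 1 was higher by the test. Of all genes tested 20.7% were lower and 17.7% were higher. The lowest were Sgo1, the shugoshin that protects centromeric cohesion, at -1.27, Spc24 at -1.25 and Ska1 at -1.11. The highest was Hjurp, the chaperone of Cenpa, at 0.40 (limma adjusted p = 0.0416), followed by Cenpl at 0.27 and Cenpb at 0.03. Of 53 other G2/M genes 52 were below 0 at a median of -0.89, and 50 were lower by the test. They ran from Kifc1, a spindle motor, at -1.78, the lamin gene Lmnb1 at -1.59 and Psrc1 at -1.37 up to Wee1, the kinase that restrains Cdk1, at -0.35, Ncaph2 at -0.28 and Cdc25a at 0.15.

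Subunits and regulators of the anaphase-promoting complex were on the whole less low than its activator Cdc20. Their median was -0.26, with 12 of 14 below 0 and 7 lower by the test. The lowest was its inhibitor Fbxo5 (Emi1) at -1.12, followed by Cdc23 at -0.59 and Anapc5 at -0.58. The highest were Anapc2 at 0.23, Fzr1 at 0.04 and Cdc27 at -0.01. The 18 DREAM and E2F genes had a median of -0.01, with 7 lower and 4 higher by the test. Lowest were Myb at -1.40, E2f7 at -1.27 and E2f8 at -1.22, and highest were Rbl2 (p130), the pocket protein of the repressor complex in resting cells, at 0.83, Rb1 at 0.59 and Lin37 at 0.38.

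All 11 G1 cyclins and kinases were below 0 on day 3, at a median of -0.79 with 8 lower by the test. Ccnd1 (cyclin D1) was at -1.32 on day 3 and 0.72 on day 5, passing on both days (limma adjusted p of 0.0044 and 0.0194). Ccne1 was at -1.21 and Cdk6 at -1.13, while Cdk7 was at -0.41, Mnat1 at -0.20 and Ccnd3 at -0.05. The genes of CDK inhibitors and cell cycle exit went the other way on balance, at a median of 0.44 with 5 of 17 below 0. By the test 7 were higher and 3 lower, against 17.7% higher and 20.7% lower of all genes tested. The highest were Ccng2, a cyclin of resting cells, at 1.12, Cdkn1b (p27) at 0.996, both passing the test, and Cdkn1a (p21) at 0.82, which did not (limma adjusted p = 0.0758). The lowest were Phlda3 at -1.15, Gadd45g at -0.58 and Cdkn2c at -0.32. The DNA replication and G1/S genes had a day 3 median of -1.08, with 38 of 39 below 0 and 36 lower by the test. At least 2-fold lower on both arrays were 22 of them, against 1.71% of all genes tested. The lowest were Mcm3, a subunit of the replicative helicase, at -1.71, Mcm6 at -1.47 and Uhrf1 at -1.34, and among those nearer to 0 were Prim2 at -0.46 and Gins4 at -0.28. On day 5 the medians of these lists ran from -0.15 for the CDK inhibitors to 0.02 for the DREAM and E2F genes.

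**Figure D4:**
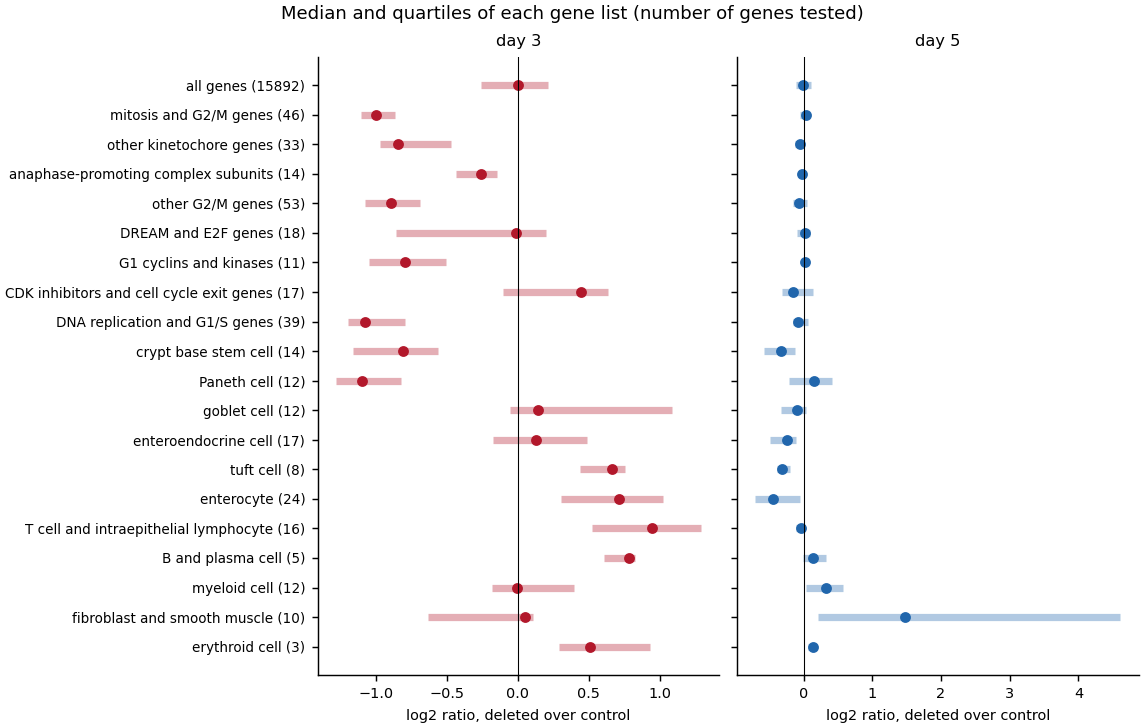
Median (point) and quartiles (bar) of the log2 ratio of deleted over control for each gene list, with day 3 on the left and day 5 on the right and the number of genes tested in brackets. The mitosis, kinetochore, other G2/M and DNA replication lists lie left of 0 on day 3 and near 0 on day 5, the enterocyte and lymphocyte lists lie right of 0 on day 3, and the 2 panels have different horizontal scales.

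Markers of cell types moved on day 3 beside the mitosis genes. Crypt base stem cell markers, Ascl2 among them, were below 0 for 11 of 14 at a median of -0.81, and Paneth cell markers for 12 of 12 at -1.10. Enterocyte markers were above 0 for 22 of 24 at a median of 0.71, with Ada, the adenosine deaminase of the villus, at 4.27, Cyp3a11 at 1.32 and Slc15a1 at 1.29. The median enterocyte signal was 13.45 (log2) in control RNA and 14.47 in deleted RNA on day 3, and 12.97 and 12.54 on day 5. T cell and intraepithelial lymphocyte markers passed the signal filter for 16 of 16 genes and were above 0 for 14 of them, at a median of 0.95, with Gzma, a granzyme, at 1.80. Tuft cell markers were above 0 for 8 of 8 at 0.67, B and plasma cell markers for 5 of 5 at 0.78, and erythroid markers for 3 of 3 at 0.51. Goblet markers were above 0 for 8 of 12 at 0.14, enteroendocrine markers for 11 of 17 at 0.13, myeloid markers for 6 of 12 at -0.0061, and fibroblast and smooth muscle markers for 6 of 10 at 0.05. Of the 10 fibroblast and smooth muscle markers 4 were lower and 1 was higher by the test, from Col3a1 at -1.07 to Pdgfrb at 1.09. Of all genes tested 20.7% were lower and 17.7% were higher. The part of these marker ratios in the day 3 ratios of the mitosis genes was not tested.

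On day 5, when the median of the mitosis genes was 0.03, crypt base stem cell markers had a median of -0.33, Paneth markers of 0.15, enterocyte markers of -0.44 and T cell markers of -0.04. Fibroblast and smooth muscle markers were above 0 for 8 of 10 at a median of 1.48 on that day. They ran from Pdgfrb at -0.11 to Col3a1, a fibrillar collagen gene, at 5.11. In the sorts crypt base stem cell markers had a median of 0.80, beside the 0.06 of the mitosis genes.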

How the data were processed

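RNA from 8 two-colour Agilent whole mouse genome arrays was compared, 4 for the sorts and 4 for the deletion. Per the file headers, arrays were read with Feature Extraction 9.5.3.1 (protocol GE2-v5_95_Feb07), with probes placed on build mm8 (NCBI36). The deposited scanner files hold spot intensity on a linear scale (mean foreground and median background), and, per the file headers, processed signals and the log10 of Cy5 over Cy3. The series matrix, also deposited, gives log2 ratios already turned to deleted over control or GFPhi over GFPlo (correlation with the turned scanner ratio 0.964 to 0.999, medians -0.0249 to 0.0306). How the authors centred them stays unknown.

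The normexp correction (offset 50) was run on all 45018 features, loess was fitted within arrays with the 1639 control spots at weight 0, and outlier-marked spots were left out. Ratios were turned by the dyes the labels give, and the 2 arrays of an RNA pair were averaged. Genes were named through RefSeq accessions or symbols, and the brightest probe stood for a gene. The signal filter asked that at least 1 of the 2 RNAs be well above background throughout a comparison, which left 10436 genes in the sorts and 15892 in the deletion. Tests used limma 3.58.1 under R 4.3.3 (lmFit, eBayes), two-sided, with Benjamini-Hochberg adjustment over all genes tested and a threshold of 0.05. The joint fit had 1 term per comparison, and the day fit 1 term for the sorts and 1 for each day (prior SD 0.0867 on 3.37 degrees of freedom). For genes tested in the deletion alone the median SD between sorts was 0.0459, against 0.0811 for those tested in the sorts, so their standard errors are low. In the joint fit the p-values rest on the gap between the sorts and the gap between the days. In the day fit they rest on the 2 sorts alone and hold no spread between extracts of the deletion. The fitting code was tested on simulated data.

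The members, the gene lists and the tests were chosen with earlier results of these data known. The rule for named genes gives array values for 30 members and for the 3 highest and 3 lowest in the sorts, on day 3 and on day 5, and the 3 highest and 3 lowest of each pathway list on day 3. Single-channel signals were scaled with Aquantile. Alternatives were the processed signals, no background subtraction, median centring, the series matrix, the signal filter, the choice of probe, naming, 1 dye orientation, leaving out an RNA pair, other sample sets, and the pair as a random block.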

Additional observations from a re-analysis of the deposited data

Results flagged for a closer look

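The ratio of deleted over control differed between day 3 and day 5 for 43 of the 46 mitosis genes, each lower on day 3 (limma adjusted p under the threshold of 0.05, with the spread taken from the sorts). The values that follow are day 3 minus day 5 on the log2 scale. The widest was that of securin, Pttg1 at -1.67, which was below 0 on day 3 and above 0 on day 5. Of the proliferation markers Mki67 at -1.31 and Top2a at -1.24 differed. Among cyclins, kinases and phosphatases the differences were Ccna2 at -1.06, Ccnb1 at -1.13, Ccnb2 at -1.003, Cdk1 at -0.95, Cdc25c at -0.95, Plk1 at -1.12, Aurka at -1.15, Nek2 at -1.11, Melk at -1.07 and Cdkn3 at -1.25. Of the checkpoint genes, 4 differed, with Bub1 at -1.30, Bub1b at -1.04, Mad2l1 at -1.15 and Ttk at -0.71. The destruction genes besides Pttg1 gave Cdc20 at -1.21 and Ube2c at -1.17. In the chromosomal passenger complex they were Aurkb at -1.02, Birc5 at -1.08, Incenp at -1.17 and Cdca8 at -0.95. For cytokinesis genes the values were Prc1 at -1.24, Anln at -1.04, Ect2 at -0.999, Racgap1 at -0.86, Kif23 at -1.04 and Kif20a at -1.11. Spindle motors and microtubule proteins had Tpx2 at -1.15, Kif11 at -0.87, Kif2c at -0.50, Kif4 at -0.91 and Ckap2 at -0.88. Centromere genes had Cenpa at -1.06, Cenpe at -1.06 and Cenpf at -0.86, and condensin genes Ncapd2 at -0.89, Ncaph at -0.69, Smc2 at -0.88 and Smc4 at -0.86. The transcription factors were Foxm1 at -0.74 and Mybl2 at -1.32. Each day is 1 RNA pair, and these calls were 0 with the processed signals and with median centring.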

How the results depend on the processing

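All 46 genes had a ratio below 0 on day 3 under each of up to 11 processing settings that gave them a value. Their day 3 median of -0.99 was -1.06 on the scanner's processed signals, -1.15 with median centring, -1.07 on the series matrix, -1.05 with probes well above background in both channels on all 8 arrays, -0.96 with the mean of all probes, -1.02 on the Cy3 arrays alone and -1.03 on the Cy5 arrays alone. The day 5 median of 0.03 was -0.16 with median centring and -0.00089 on the Cy3 arrays. With median centring 2 genes were at least 2-fold lower on both day 3 arrays, against 18, and Pttg1 was not 2-fold higher on day 5 (0 genes), as on processed signals (0 genes). The day 3 count was 13 with the mean of all probes, 21 on processed signals and 22 on the series matrix. On processed signals and with median centring the calls were 0 for the 46 and 0 for all genes on day 3, on day 5 and for the day difference, against 45, 1 and 43 of the 46. Of all genes, either direction, 6100 passed on day 3, 1187 on day 5 and 4420 for the day difference. On the series matrix these were 3377, 774 and 1946, and with the stricter signal filter 3533, 301 and 2234. With the mean of probes, day 5 had 629 and the day difference 2741, and with Cy3 arrays alone 720 and 2716. The Cy5 arrays alone gave 2803 for the day difference. With the RNA pair as a random block 5 of the 46 passed on day 5, 3 in the mean of both days, and 3813, 7735, 2048 and 310 of all genes passed on day 5, for the day difference, for the mean of both days and in the sorts. That fit takes each of the 8 arrays as an observation, with an estimated correlation of -0.33 within a pair. Its counts thus lean on dye swaps of the same extracts, which are not independent replicates. The sorts alone gave 75 genes. Leaving out an RNA pair moved the mean of both days, from 0 calls, to 1 of the 46 and 1187 of all genes without day 3 and to 45 and 6100 without day 5, and the sorts from 0 to 125 genes without either day. Without a sort the day fit has no residual degrees of freedom and was not run. No result changed sign while called. Depth is not defined for arrays, and 1 RNA pair a day limits the precision. No paired analysis was possible because the groups compared share fewer than 2 replicate numbers, and each ratio already sets the RNAs of 1 pair against each other on 1 array.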

Other observations

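Probes of 1 gene did not always give 1 size. Of the 46 genes 21 had several probes past the signal filter, and in 0 of them did the probes differ in sign on day 3. The probe sets of Mki67, Smc4, Bub3 and Kif20a lay within 0.02 of each other, while the probes of Cdk1 lay 0.97 apart, those of Cenpf 0.68 and those of Top2a 0.59, each with the brighter probe lower. The dye-swapped arrays of a pair differed by a median of 0.12 over the 46 genes on day 3 and 0.09 on day 5, and by 0.13 and 0.09 over 39 genes in sort 1 and sort 2. Of these 39, 25 were above 0 on both arrays of sort 1 and 9 on both arrays of sort 2.

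Among all 10859 genes tested in the deletion that had a promoter window, the 446 with a CHR form and at least 2 CCAAT boxes had a median of -0.06 on day 3, and 24 of them were at least 2-fold lower on both arrays. The 6943 genes with neither had a median of -0.0024 and 96 such genes. These counts include mitosis genes, 18 of which hold both kinds of letters. Of those 18, 8 were at least 2-fold lower on both arrays.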
